A study of Mus musculus with 21 samples.

Results

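The 9 genes described here, all outside the Reg3 family, were Cfi, Ret, Slc28a2, Nrp2, Hsd3b3, Clca4a, Car2, St6galnac6 and Id3. They were selected on their measured fold changes between antibiotics-treated and specific pathogen free (SPF) mice on Milli-Q (purified) water, so that contrast describes the choice and carries no test. They are 9 of 55414 genes in the count table and 9 of 13070 genes with enough counts to be tested, and all 9 passed the filter on low counts. The 21 libraries are bulk RNA-seq of Paneth cells sorted by FACS from small intestine, which the study describes as C57BL/6J cells from individual animals. SPF mice drank Milli-Q water (3 libraries) or zinc sulfate water (3 libraries) for 7 weeks, at 200 mM as labelled. Mice given the same waters and broad-spectrum antibiotics during the last 3 weeks gave 4 libraries on each water. Germ-free mice, which had no antibiotics, gave 3 libraries on Milli-Q water and 4 on zinc water. Antibiotics were given late to colonised mice, whereas germ-free mice are raised without microbes, so the groups are different models of a missing microbiota. Ages of the mice are not given in the sources used here.

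Paneth cells sit at the base of small intestinal crypts, secrete antimicrobial proteins into the lumen and lie next to the stem cells. Bacterial products and the immune signals they set off are known to alter gene expression in the gut epithelium, and the Reg3 lectins are the usual example. The 9 genes have unrelated roles, among them a complement protease, receptors, a nucleoside transporter, metabolic enzymes and a transcriptional regulator.

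Library totals ranged from 9888174 to 16896714 counts (median 12936001). Levels are given as CPM, a gene's counts relative to the library total, scaled by TMM factors that correct for the makeup of each library. The summed level of 6 Paneth cell markers, Lyz1, Defa24, Mmp7, Itln1, Ang4 and Pla2g2a, lay between 167700 and 815290 CPM, and none of them was at 0 in any library. Markers of other epithelial cells were also present, with summed levels of 8087 to 18610 CPM for goblet, 2291 to 5300 CPM for stem and cycling, 275 to 1916 CPM for enterocyte, 92.3 to 332 CPM for tuft and 57.5 to 203 CPM for enteroendocrine cells. Summed markers of stromal cells stayed at or below 2.77 CPM, and those of neural cells at or below 2.52 CPM, with Col1a2, Col3a1 and Sox10 at 0 in all 21 libraries. Immune markers summed to 4.27 to 20.3 CPM, with Lyz2 reaching 19.0 CPM. Endothelial markers summed to 5.99 to 14.3 CPM, with Prox1 reaching 13.6 CPM. SPF Milli-Q replicate 2 stood apart, with 54 genes of at least 5 CPM that were at least 3 times the highest of the other 20 libraries, against 0 or 1 such gene in each other library. Xist, which is transcribed from the inactive X chromosome, had 6228 counts in SPF zinc replicate 1 and no more than 34 elsewhere. Because the libraries are bulk samples, fewer cells of a type and less RNA per cell cannot be told apart.

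The promoters of Cfi, Slc28a2 and Id3 are shown as those of 3 of the 4 members that passed a test outside the contrast that chose them. Each runs from 270 bases before to 30 bases after the start of the canonical transcript, read 5′ to 3′ on the gene's strand from GRCm39 with GENCODE M39 starts. Capitals mark matches to a STAT element (TTCNNNGAA), an AP-1 element (TGANTCA) or the NF-kB element, searched on both strands.
Cfi, chr3:129630013-129630312, plus strand: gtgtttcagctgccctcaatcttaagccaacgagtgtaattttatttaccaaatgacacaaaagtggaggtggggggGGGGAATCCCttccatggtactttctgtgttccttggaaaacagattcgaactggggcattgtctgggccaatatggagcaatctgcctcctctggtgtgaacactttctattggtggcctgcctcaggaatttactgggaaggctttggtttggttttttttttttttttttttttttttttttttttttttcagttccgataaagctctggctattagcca
Slc28a2, chr2:122256600-122256899, plus strand: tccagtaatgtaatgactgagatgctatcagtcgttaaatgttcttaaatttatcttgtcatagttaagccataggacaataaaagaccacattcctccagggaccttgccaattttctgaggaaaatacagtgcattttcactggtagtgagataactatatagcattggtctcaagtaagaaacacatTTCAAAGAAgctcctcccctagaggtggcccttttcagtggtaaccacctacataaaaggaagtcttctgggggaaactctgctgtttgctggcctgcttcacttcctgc
Id3, chr4:135870538-135870837, plus strand: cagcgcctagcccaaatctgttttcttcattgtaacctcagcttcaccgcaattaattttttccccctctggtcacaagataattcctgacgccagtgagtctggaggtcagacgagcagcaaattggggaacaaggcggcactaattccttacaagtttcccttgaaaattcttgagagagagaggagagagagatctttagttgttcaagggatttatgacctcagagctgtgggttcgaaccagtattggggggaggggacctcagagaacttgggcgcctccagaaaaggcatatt
The Slc28a2 window held 1 STAT match, at position −80 from the start, and the Cfi window 1 NF-kB match at −193. The Id3 window held none of the 3 motifs. Of 21751 promoters of protein-coding genes, 8.99% held the STAT element, 7.29% the AP-1 element and 8.96% the NF-kB element. A match describes letters in the window and is not a measured binding site.

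Cfi, Ret and Slc28a2 were higher in each of the 6 SPF libraries than in each of the 15 antibiotics and germ-free libraries, on either water. The SPF and antibiotics libraries on Milli-Q water chose the genes, so part of this separation follows from the choice. The share of all genes separated in this way was not computed. Cfi (complement factor I, chr3:129629533-129668981, plus strand, ENSMUSG00000058952) encodes the serine protease that inactivates C3b and C4b. It stood at 27.5, 23.4 and 19.0 CPM in the SPF Milli-Q libraries and 28.9, 15.9 and 19.5 CPM on zinc water. After antibiotics it stood at 6.21, 5.64, 7.83 and 6.71 CPM on Milli-Q water and 8.24, 8.95, 3.64 and 6.01 CPM on zinc water. Germ-free libraries held 12.8, 8.29 and 8.14 CPM on Milli-Q water and 14.3, 13.1, 8.73 and 7.02 CPM on zinc water. The lowest SPF library thus lay above the highest germ-free library, and germ-free means (9.75 and 10.8 CPM) lay above antibiotics means (6.60 and 6.71 CPM) with overlapping libraries on zinc water and no overlap on Milli-Q water (8.14 against 7.83 CPM).

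Ret (chr6:118128706-118174769, minus strand, ENSMUSG00000030110) encodes the receptor tyrosine kinase through which GDNF family ligands signal, best known in enteric neurons. It stood at 7.29, 6.38 and 6.62 CPM in the SPF Milli-Q libraries and 8.32, 5.97 and 7.22 CPM on zinc water. After antibiotics the values were 3.00, 2.03, 2.74 and 1.90 CPM on Milli-Q water and 4.21, 4.84, 2.09 and 3.40 CPM on zinc water. Germ-free values were 2.72, 1.78 and 2.25 CPM on Milli-Q water and 2.32, 5.03, 2.36 and 2.44 CPM on zinc water. The SPF libraries did not overlap the others, although germ-free zinc replicate 2 came close at 5.03 CPM. The neural marker Sox10 was at 0 in all libraries.

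Slc28a2 (chr2:122256870-122291632, plus strand, ENSMUSG00000027219) encodes a sodium-coupled transporter that takes up purine nucleosides. It stood at 9.40, 6.38 and 8.41 CPM in the SPF Milli-Q libraries and 12.2, 6.90 and 11.3 CPM on zinc water. After antibiotics it stood at 3.21, 2.95, 3.26 and 3.41 CPM on Milli-Q water and 2.17, 1.18, 1.68 and 2.74 CPM on zinc water. Germ-free libraries held 3.50, 2.22 and 3.53 CPM on Milli-Q water and 4.65, 3.83, 3.30 and 2.76 CPM on zinc water. Only 70.5% of the 60-base stretches of its transcripts occur in no other gene, since it shares sequence with Slc28a2b, which had 0 counts in all libraries, so how shared reads were assigned may affect its level.

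Id3 (chr4:135870808-135873066, plus strand, ENSMUSG00000007872) encodes an inhibitor of basic helix-loop-helix factors and is a common target of BMP signalling. It was the member with higher levels after antibiotics. SPF libraries held 18.0, 13.0 and 15.9 CPM on Milli-Q water and 10.9, 13.9 and 13.1 CPM on zinc water. After antibiotics it stood at 28.2, 34.1, 20.9 and 32.3 CPM on Milli-Q water and 18.6, 16.4, 23.1 and 21.6 CPM on zinc water. Germ-free libraries, at 16.6, 22.9 and 18.5 CPM on Milli-Q water and 13.8, 16.9, 14.6 and 17.1 CPM on zinc water, lay between the SPF and antibiotics means of the same water.

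**Figure D1:**
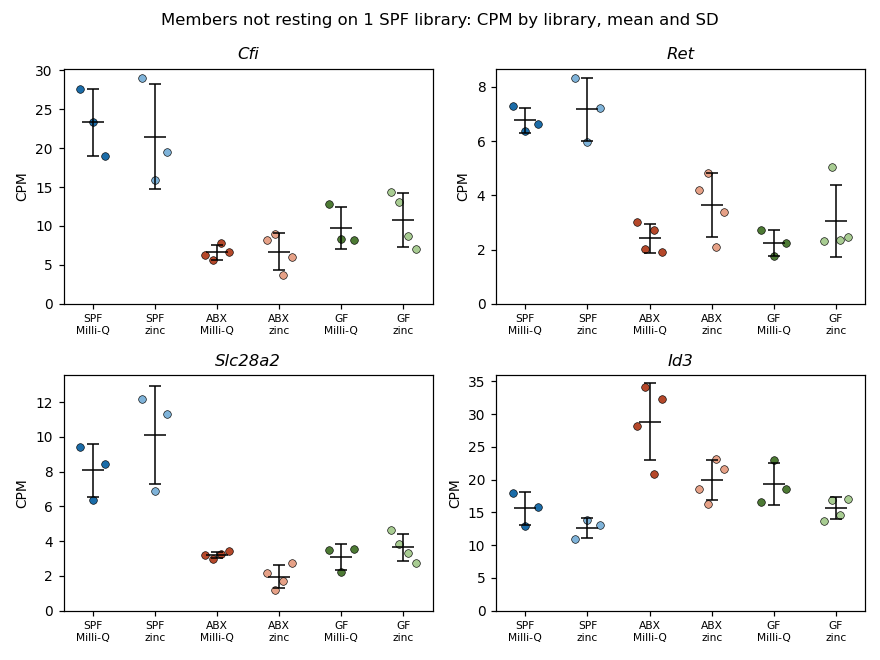
CPM (vertical axis, linear from 0) of Cfi, Ret, Slc28a2 and Id3 in each library of the 6 groups, where ABX is antibiotics and GF germ-free. Points are libraries, horizontal bars group means and error bars the SD. All SPF points of Cfi, Ret and Slc28a2 lie above all other points, and the highest Id3 points, up to 34.1 CPM, are from mice on Milli-Q water given antibiotics.

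The other 5 members were dominated by SPF Milli-Q replicate 2. A member was marked as resting on a single SPF library where that library was at least 2 times the median of the other SPF libraries, or where leaving it out shrank the log2 fold change by over 0.58. Nrp2, Hsd3b3, Clca4a, Car2 and St6galnac6 met this on Milli-Q water, each time through replicate 2. Cfi, Ret, Slc28a2 and Id3 did not, and their log2 fold changes shrank by at most 0.13.

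Car2 (chr3:14951317-14967568, plus strand, ENSMUSG00000027562), the cytosolic carbonic anhydrase that interconverts carbon dioxide and bicarbonate, stood at 0.886, 67.7 and 0.870 CPM in the SPF Milli-Q libraries. These were 13, 1326 and 18 counts, so replicate 2 was 77.1 times the median of the others. The other 18 libraries, on zinc water or without a normal microbiota, held 0.186 to 2.71 CPM.

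St6galnac6 (chr2:32489721-32510825, plus strand, ENSMUSG00000026811) encodes a sialyltransferase that adds sialic acid to glycolipids and glycoproteins. It stood at 2.93, 117.7 and 2.61 CPM in the SPF Milli-Q libraries, or 43, 2306 and 54 counts. Replicate 2 was 42.5 times the median of the other SPF libraries, and outside this group no library exceeded 4.82 CPM.

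Hsd3b3 (chr3:98648793-98670443, minus strand, ENSMUSG00000062410), a 3β-hydroxysteroid dehydrogenase of steroid metabolism, stood at 0.886, 13.7 and 0.629 CPM in these 3 libraries. The ratio of replicate 2 to the median of the others was 18.1. On zinc water the SPF values were 1.22, 0.569 and 0.521 CPM, the antibiotics values 0.557, 0.720, 1.08 and 1.04 CPM and the germ-free values 3.10, 0.656, 2.12 and 0.744 CPM. The SPF and antibiotics groups overlapped on zinc water, and all but the SPF Milli-Q replicate 2 value rested on at most 18 counts.

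Clca4a (chr3:144658241-144680806, minus strand, ENSMUSG00000068547) belongs to the calcium-activated chloride channel regulator family. It stood at 0.954, 15.1 and 3.24 CPM in the SPF Milli-Q libraries, with replicate 2 at 7.21 times the median of the others, and at 4.08, 7.97 and 5.66 CPM on zinc water. Antibiotics values were 0.300, 0.197, 0.144 and 0.584 CPM on Milli-Q water and 0.743, 0.412, 1.35 and 2.02 CPM on zinc water. Germ-free values spread from 0 to 1.78 CPM on Milli-Q water and from 0 to 5.53 CPM on zinc water. The SPF zinc libraries, among which none was marked, lay above all antibiotics libraries. Of the 60-base stretches of this gene 68.7% occur in no other gene, and its relative Clca4b held 71.7 to 127 CPM in the SPF Milli-Q libraries, so the share of its reads that belongs to relatives is uncertain.

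Nrp2 (chr1:62742444-62857854, plus strand, ENSMUSG00000025969), a co-receptor for class 3 semaphorins and VEGF, was the least uneven of the marked genes. It stood at 14.7, 33.4 and 13.1 CPM in the SPF Milli-Q libraries and 16.6, 18.3 and 14.4 CPM on zinc water. After antibiotics the values were 6.46, 6.30, 11.0 and 8.17 CPM on Milli-Q water and 10.3, 12.1, 12.3 and 7.44 CPM on zinc water. Germ-free values were 17.4, 8.59 and 12.2 CPM on Milli-Q water and 21.5, 13.4, 14.9 and 11.2 CPM on zinc water. SPF and antibiotics libraries did not overlap on either water, whereas germ-free libraries overlapped both.

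**Figure D2:**
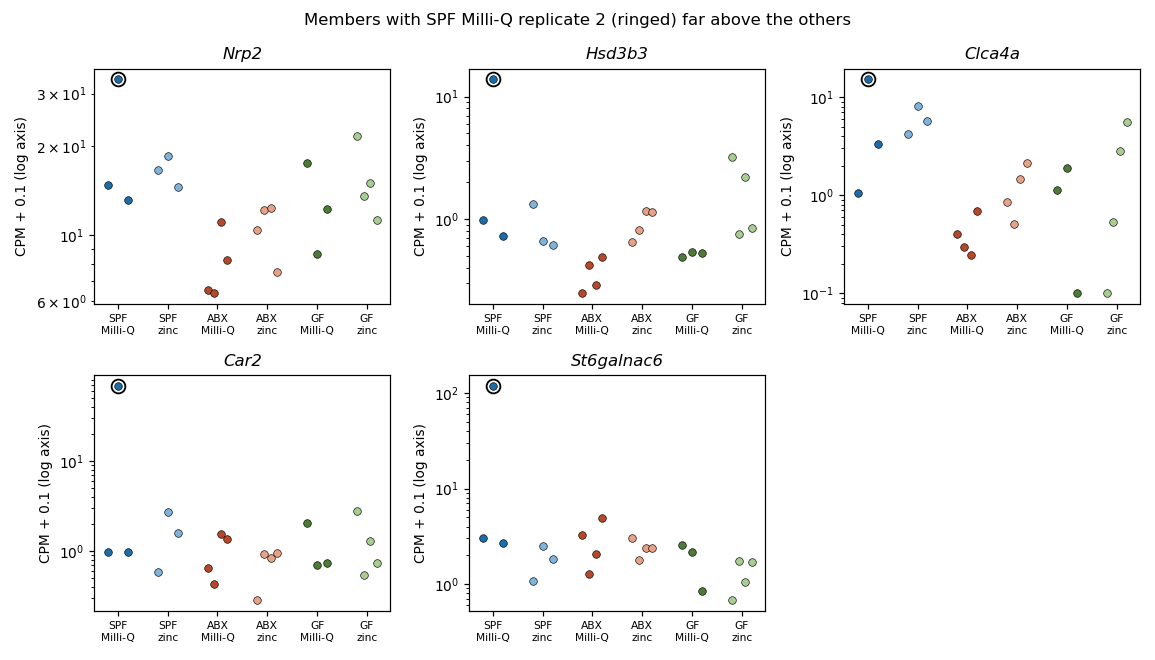
CPM plus 0.1 (logarithmic vertical axis) of Nrp2, Hsd3b3, Clca4a, Car2 and St6galnac6 in each library of the 6 groups, with SPF Milli-Q replicate 2 ringed. The ringed library is the highest of the 21 in all 5 panels, by the widest gap for Car2 (67.7 CPM) and St6galnac6 (117.7 CPM).

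In the contrast that chose the genes, antibiotics against SPF on Milli-Q water, the fit over all genes called 26 genes (0.199%), and the 9 members are among these by choice. The log2 fold change was −1.81 ± 0.26 (SE) for Cfi, −1.48 ± 0.28 for Ret, −1.32 ± 0.25 for Slc28a2 and −1.35 ± 0.28 for Nrp2. It was −4.24 ± 0.79 for Hsd3b3, −4.34 ± 0.90 for Clca4a, −4.65 ± 0.96 for Car2, −3.87 ± 0.79 for St6galnac6 and 0.89 ± 0.17 for Id3. The members just inside the threshold were Nrp2 (rank 26), Clca4a and Car2, and the genes just outside were Gsdmc2 (−4.20), Ciita (2.93) and Vsig2 (−1.11). Groups did not overlap for 6 members that were lower (4.05% of all genes) and for Id3, which was higher (4.45%). Car2 and St6galnac6 overlapped.

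Without SPF Milli-Q replicate 2 the same contrast gave 0.04 ± 0.71 for Car2 and 0.01 ± 0.46 for St6galnac6. It gave −1.49 ± 0.63 for Hsd3b3, −2.76 ± 0.88 for Clca4a and −0.80 ± 0.26 for Nrp2. For the unmarked members the values were −1.81 ± 0.29 for Cfi, −1.52 ± 0.31 for Ret, −1.48 ± 0.27 for Slc28a2 and 0.76 ± 0.19 for Id3. Of the 26 genes called, 10 had SPF Milli-Q replicate 2 at no less than 2 times the median of the other SPF libraries, and 5 of these were members.

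**Figure D3:**
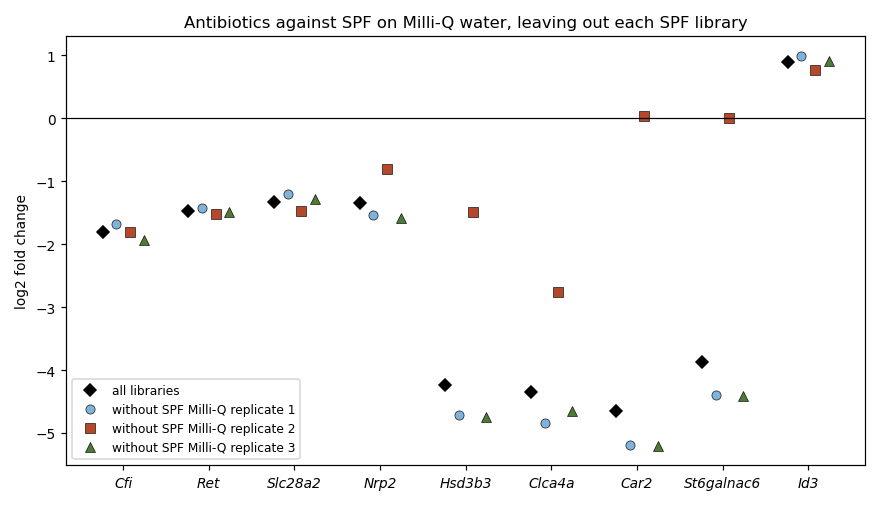
Log2 fold change of each member in antibiotics against SPF mice on Milli-Q water (vertical axis), with all libraries and without each SPF Milli-Q library in turn. Only leaving out replicate 2 brings Car2 and St6galnac6 to 0.04 and 0.01, while the 4 symbols lie close together for Cfi, Ret, Slc28a2 and Id3.

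Car2, St6galnac6 and Hsd3b3 were among the 54 genes that were extreme in SPF Milli-Q replicate 2. Genes beside them included Cyp2c55 (217 CPM against at most 5.04 elsewhere), Fut2 (59.5 against 4.59 CPM), Retnlb (97.9 against 11.6 CPM) and Car1 (460 against 62.9 CPM). Car1, another cytosolic carbonic anhydrase, stood at 0.068 and 0 CPM in the other SPF Milli-Q libraries. These genes were picked after their values were seen, and their part in the results was not tested. The 10 enterocyte markers summed to 555 CPM in that library against 295 and 431 CPM in the others, the 8 goblet markers to 11377 against 9580 and 8087 CPM, and the 6 Paneth markers to 201760 against 317410 and 234340 CPM.

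On zinc water, Cfi, Ret and Slc28a2 were lower and Id3 higher after antibiotics than in SPF mice. The zinc libraries lie outside the contrast that chose the genes, but all 21 libraries share 1 fit and its spread per gene. Slc28a2 fell 5.22-fold, with a log2 fold change of −2.38 ± 0.26 and an adjusted p of 1.9e-05 by edgeR's quasi-likelihood test with Benjamini-Hochberg adjustment over 13070 genes, which also gave the values that follow. Cfi fell 3.17-fold (−1.67 ± 0.27, adjusted p = 0.00122 in edgeR) and Ret 1.96-fold (−0.97 ± 0.28, adjusted p = 0.0326 in edgeR). Id3 rose 1.57-fold (0.65 ± 0.18, adjusted p = 0.0252 in edgeR). Thus 3 of 9 members were called lower, where 4.21% of all genes were, and 1 was called higher, where 4.76% were. The median log2 fold change was −0.97 over the 9 members and −0.0017 over all genes. Groups did not overlap for Cfi, Ret, Slc28a2, Nrp2 and Clca4a, which were lower (13.2% of genes), and for Id3, which was higher (14.5%).

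The 5 members that rested on SPF Milli-Q replicate 2 did not pass the edgeR test on zinc water. Clca4a gave −2.40 ± 0.81 (adjusted p = 0.0618 in edgeR) and Nrp2 −0.64 ± 0.29 (adjusted p = 0.158 in edgeR). Car2 gave −1.25 ± 1.14, Hsd3b3 0.14 ± 0.81 and St6galnac6 0.41 ± 0.95, with adjusted p of 0.521, 0.929 and 0.82 in edgeR. These standard errors leave room for sizeable differences, so the missing calls do not show equal levels. The fit takes 1 spread per gene from all 21 libraries, so SPF Milli-Q replicate 2 entered these standard errors too. Without that library Clca4a was called (adjusted p = 0.0361 in edgeR), as it was without some other single libraries. With no filter on low counts, Clca4a, Nrp2 and Car2 were called (adjusted p of 2.05e-08, 0.0273 and 0.0204 in edgeR). A single SPF library also weighed on Car2 on zinc water, where replicate 2 was 2.66 times the median of the others and its omission gave −0.61. SPF zinc replicate 1 was at 2.24 times the median of the other SPF zinc libraries for Hsd3b3 and at 0.474 times for St6galnac6.

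Slc28a2 and Cfi kept their calls when any 1 of the 21 libraries was left out, with adjusted p up to 0.000306 and 0.0127 in edgeR. The call of Ret was lost without antibiotics zinc replicate 1, 3 or 4, or without any of the 3 SPF zinc libraries (adjusted p 0.0553 to 0.114 in edgeR). It was also lost when only library totals scaled the counts (0.111 in edgeR) and with the replicate number as a block (0.0575 in edgeR). The call of Id3 was lost without antibiotics zinc replicate 3 or 4 or any SPF zinc library (0.059 to 0.0985 in edgeR). Without SPF zinc replicate 1, the library with high Xist, the values were −2.23 for Slc28a2, −1.39 for Cfi, −0.85 for Ret and 0.56 for Id3. The 10 enterocyte markers summed to 866 to 1622 CPM in SPF zinc libraries and 309 to 473 CPM in antibiotics zinc libraries, none of them at 0 in any library, and their part in the difference was not tested. On Milli-Q water the same sums were 295 to 555 CPM in SPF and 275 to 328 CPM in antibiotics libraries.

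**Figure D4:**
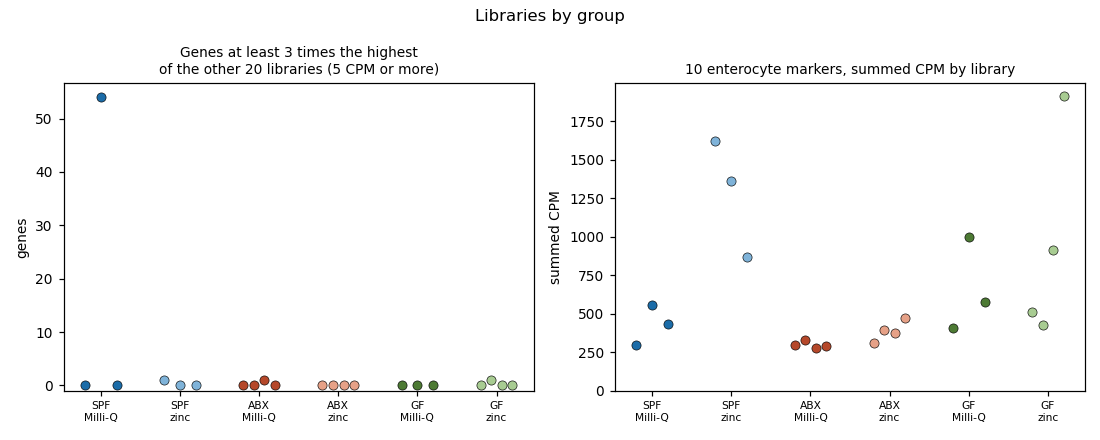
Left, number of genes of at least 5 CPM that are at least 3 times the highest of the other 20 libraries; right, summed CPM of 10 enterocyte markers, each by library and group. SPF Milli-Q replicate 2 stands at 54 genes and the others at 0 or 1, and the SPF zinc libraries (866 to 1622 CPM) lie above the antibiotics zinc libraries (309 to 473 CPM) in the marker sum.

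Germ-free mice on zinc water also had lower Cfi, Ret and Slc28a2 than SPF mice on zinc water, a comparison that shares its SPF libraries with the preceding one. Slc28a2 was 2.82-fold lower (−1.50 ± 0.27, adjusted p = 0.00473 in edgeR), Ret 2.32-fold lower (−1.21 ± 0.29, adjusted p = 0.0181 in edgeR) and Cfi 2.01-fold lower (−1.01 ± 0.27, adjusted p = 0.0317 in edgeR). These 3 of 9 members were called lower where 2.38% of all genes were, and they were the members whose groups did not overlap (8.31% of genes that were lower). Id3 gave 0.31 ± 0.18 (adjusted p = 0.309 in edgeR) with overlapping libraries, and no marked member passed the test. Clca4a gave −1.36 ± 0.80, Nrp2 −0.13, Car2 −0.49, St6galnac6 −0.45 and Hsd3b3 1.03, with adjusted p of 0.311, 0.833, 0.848, 0.848 and 0.478 in edgeR. With no filter on low counts, Clca4a was called (adjusted p = 0.00717 in edgeR).

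Among the calls of Slc28a2, Ret and Cfi, that of Slc28a2 was kept in each of 21 fits without 1 library (adjusted p up to 0.0336 in edgeR). The Cfi call was lost without germ-free zinc replicate 3 or any SPF zinc library (adjusted p 0.0586 to 0.142 in edgeR), and the Ret call without germ-free zinc replicate 1 or any SPF zinc library (0.0523 to 0.073 in edgeR). Enterocyte markers summed to 427 to 1916 CPM in germ-free zinc libraries, a range that contained the SPF zinc range of 866 to 1622 CPM. Goblet markers (12686 to 18581 against 8465 to 9993 CPM) and Paneth markers (444920 to 815290 against 286980 to 341040 CPM) were higher in every germ-free than in every SPF zinc library, and their part in these differences was not tested. These sums depend on the TMM factors, where a lower factor gives a higher CPM. The factors were 0.522 to 0.834 in germ-free zinc and 0.996 to 1.17 in SPF zinc libraries. Sums scaled by library totals alone were not computed.

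**Figure D5:**
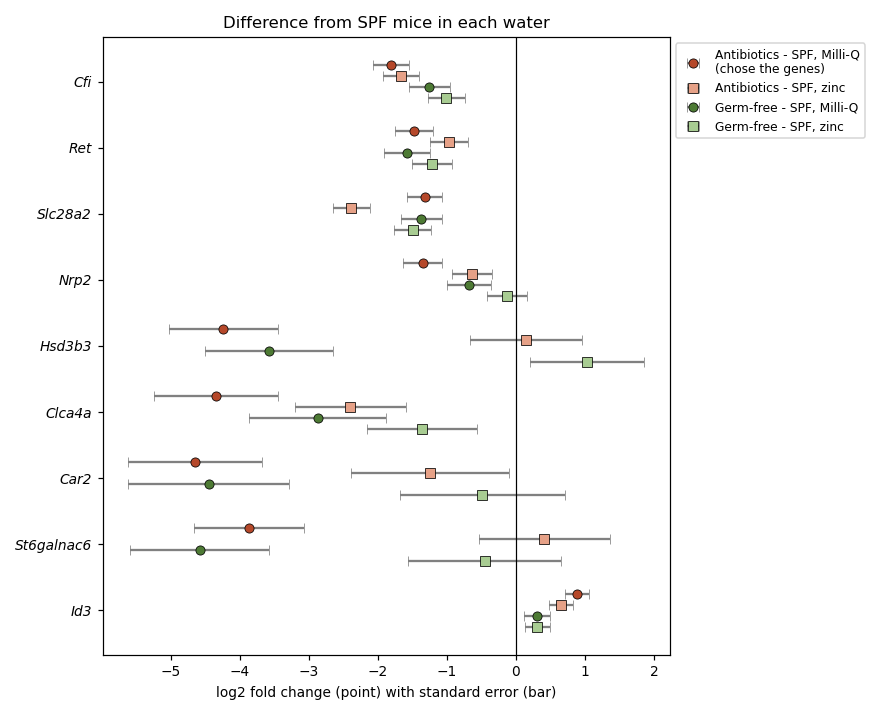
Log2 fold change (horizontal axis, points) with its SE (bars) of the 9 members for antibiotics and germ-free mice against SPF mice, on Milli-Q water (circles) and zinc water (squares). Cfi, Ret and Slc28a2 lie left of 0 in all 4 contrasts, whereas Hsd3b3, Car2 and St6galnac6 lie far left only on Milli-Q water, the contrasts that use SPF Milli-Q replicate 2.

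Germ-free against SPF mice on Milli-Q water reuses the SPF libraries that chose the genes, so its values are given without a test. They were −1.25 ± 0.29 for Cfi, −1.58 ± 0.33 for Ret, −1.37 ± 0.29 for Slc28a2 and 0.31 ± 0.19 for Id3. The marked members gave −0.68 ± 0.31 (Nrp2), −3.58 ± 0.93 (Hsd3b3), −2.87 ± 0.99 (Clca4a), −4.45 ± 1.16 (Car2) and −4.58 ± 1.01 (St6galnac6). Groups did not overlap for Cfi, Ret, Slc28a2, Hsd3b3 and St6galnac6, which were lower (18.8% of genes).

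Zinc water itself moved no member past the test in germ-free mice, the zinc comparison outside the contrast that chose the genes. None of the 9 was called, against 11.4% of all genes, and DESeq2 also called 0. For so few genes this lies near the share of all genes. With no filter on low counts, Hsd3b3 and Clca4a were called (adjusted p of 0.0294 and 0.0356 in edgeR). With the filter, none of the 9 had an unadjusted p under 0.05 in edgeR. Standard errors reached 1.37 (Car2), so the missing calls do not show equal levels. Hsd3b3 was the member with no overlap between the groups (5.74% of genes that were higher), at 0.389, 0.444 and 0.428 CPM on Milli-Q water and 0.656 to 3.10 CPM on zinc water (1.88 ± 0.97, adjusted p = 0.204 in edgeR), on 3 to 18 counts per library. Cfi gave 0.13, Slc28a2 0.20, Ret 0.45 and Id3 −0.30 in this comparison.

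Zinc against Milli-Q water within SPF mice or after antibiotics uses libraries of the choosing contrast and is described only. In SPF mice the log2 fold change was −0.12 for Cfi, 0.08 for Ret, 0.33 for Slc28a2 and −0.30 for Id3. St6galnac6 was the member without overlap there (lower, as in 5.66% of genes), at 0.978 to 2.42 CPM on zinc water. After antibiotics Slc28a2 was lower on zinc water (−0.73 ± 0.26) with no overlap, as in 13.6% of genes, and Hsd3b3 was higher (1.65 ± 0.81) with no overlap, as in 13.9%. Ret gave 0.59, Id3 −0.54 and Cfi 0.03.

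Genes of the same pathways as the members were taken from lists and read from the same edgeR fit on zinc water. Over the 9 lists, 13 of 103 genes tested were called after antibiotics (12.6%, against 8.97% of all genes) and 4 of 103 in germ-free against SPF mice (3.88%, against 5.85%), shares near those of all genes, so the list genes named here are single calls. Of 14 complement genes tested beside Cfi, 0 were called by edgeR after antibiotics and 0 in germ-free against SPF mice. Of 10 nucleoside transport and purine genes beside Slc28a2, 2 were called lower after antibiotics, where 4.21% of all genes were, one of them Ada, adenosine deaminase (−1.57 ± 0.39, adjusted p = 0.017 in edgeR), which averaged 4.55 ± 1.96 CPM (SD, n = 4) against 13.5 ± 2.81 CPM (SD, n = 3). The other, Slc28a1, is a pyrimidine nucleoside transporter. In germ-free against SPF mice 0 of the 10 were called.

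Of 20 Id and BMP pathway genes beside Id3, 2 were called higher and 2 lower after antibiotics, where 4.76% and 4.21% of all genes were. Id2, a relative with the same inhibitory role, rose (0.77 ± 0.22, adjusted p = 0.0336 in edgeR) and averaged 11.7 ± 2.62 CPM (SD, n = 4) against 6.90 ± 1.90 CPM (SD, n = 3), and Id4 also rose (3.42), whereas the receptor Acvr2b (−1.17) and the inhibitory Smad7 (−1.23) fell. In germ-free against SPF mice Id4 (1.97) and the ligand Bmp7 rose, Bmp7 by 0.66 ± 0.12 (adjusted p = 0.00545 in edgeR). Of 8 genes of RET signalling, the adaptor Grb7 alone was called after antibiotics (−0.51 ± 0.14, adjusted p = 0.0235 in edgeR) and 0 in germ-free against SPF mice.

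Around the marked members, 0 of 12 neuropilin, semaphorin and VEGF genes and 0 of 12 sialyltransferase genes were called after antibiotics or in germ-free against SPF mice on zinc water. Of 12 carbonic anhydrase and acid-base transport genes, Car4 was called higher in both comparisons (1.93 and 2.16), where 4.76% and 3.47% of all genes were, and the anion exchanger Slc26a6 (−1.64 ± 0.37, adjusted p = 0.00922 in edgeR) and the sodium-proton exchanger Slc9a3 (−3.85) fell after antibiotics. Of 10 steroid genes, Hsd11b2, which inactivates glucocorticoids, rose after antibiotics (2.69 ± 0.65, adjusted p = 0.0146 in edgeR), as did the electron carrier Fdx1 (0.63 ± 0.18, adjusted p = 0.0307 in edgeR). Of 5 other Clca genes tested, the goblet cell gene Clca1 rose after antibiotics (1.72 ± 0.40, adjusted p = 0.0127 in edgeR) and Clca3a2 was lower in germ-free mice (−0.90 ± 0.21, adjusted p = 0.0149 in edgeR).

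For zinc water in germ-free mice, which moved no member past the test, 13 of the 103 list genes were called (12.6%), near the 11.4% of all genes. The calls over all genes fell from 1485 to 5 without germ-free Milli-Q replicate 2. The sialyltransferase St6galnac2 fell (−0.86 ± 0.16, adjusted p = 0.00923 in edgeR) and averaged 71.8 ± 16.9 CPM (SD, n = 4) against 130 ± 13.4 CPM (SD, n = 3). The bicarbonate cotransporter Slc4a4 rose (1.17 ± 0.27, adjusted p = 0.013 in edgeR), as did Car9 (0.52 ± 0.17, adjusted p = 0.0482 in edgeR). In the Id and BMP list, 3 of 20 rose, namely Acvr2a (0.95 ± 0.24), Smad4 (0.78 ± 0.19) and Bmpr1a (0.67 ± 0.20), with adjusted p of 0.0179, 0.0149 and 0.0372 in edgeR. The equilibrative nucleoside transporter Slc29a1 fell (−0.48 ± 0.13) and Slc29a3 rose (0.76 ± 0.24), with adjusted p of 0.0221 and 0.0404 in edgeR. Of the 12 neuropilin, semaphorin and VEGF genes, Plxna2 (0.77 ± 0.21) and Vegfc (1.60) rose and Sema3b fell (−0.58 ± 0.17), with adjusted p of 0.0248 and 0.03 in edgeR for Plxna2 and Sema3b. In the remaining lists, Cfb (1.30) rose among complement genes and Gdf15 (−1.64) fell among RET signalling genes.

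The genes whose log-CPM followed each member most closely over the 21 libraries are given as a description, since these correlations share libraries, depth and group differences. Cfi was most like Reg3g (Pearson's r = 0.90, Spearman's rho = 0.88) and Mptx2 (r = 0.88, rho = 0.85). Slc28a2 was most like Cfi (r = 0.84, rho = 0.79) and Mptx2 (r = 0.82, rho = 0.77), and Ret like Cfi (r = 0.81, rho = 0.75) and Tcaf1 (r = 0.77, rho = 0.81). Id3 was most like Fgfr4 (r = 0.82, rho = 0.74) and Serhl (r = 0.81, rho = 0.84). In contrast, Car2 was paired with Fut2 (r = 0.82, rho = 0.37) and Tmc5 (r = 0.82, rho = 0.54), and St6galnac6 with B4galt4 (r = 0.86, rho = 0.45), where rank correlation was far below Pearson's r. Hsd3b3 was most like Cyp2c55 (r = 0.90, rho = 0.79) and A4gnt (r = 0.87, rho = 0.75), Nrp2 like Ablim1 (r = 0.90, rho = 0.84) and Tmc5 (r = 0.82, rho = 0.78), and Clca4a like Lgals3 (r = 0.80, rho = 0.79) and Npc1l1 (r = 0.79, rho = 0.76). Among deviations from the group means, Hsd3b3 and Car2 correlated at r = 0.80, Nrp2 and Car2 at 0.78, and Car2 and St6galnac6 at 0.76, and Cfi and Ret at 0.70. SPF Milli-Q replicate 2 was the highest library for Hsd3b3, Nrp2, Car2 and St6galnac6. Their correlations without it were not computed.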

How the data were processed

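The authors deposited raw counts per Ensembl gene for 21 stranded mRNA libraries. Their processing notes name FastQC 0.12.0, STAR 2.7.0a, DESeq2 and the mm39 build; the study describes STAR alignment and Salmon quantification. The counting tool, its strand setting and its handling of shared reads are not given in the sources used here, so antisense, overlapping and duplicated genes are uncertain. Every column matched a labelled sample (0 unmatched), and symbols came from GENCODE M39.

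Counts were fitted with edgeR 4.0.16 (limma 3.58.1, R 4.3.3) in 1 quasi-likelihood model with 6 groups, TMM factors and filterByExpr. P-values were Benjamini-Hochberg adjusted per comparison at 0.05. Standard errors are the log2 fold change over the root of F. Log-CPM used a prior count of 2. The labels number replicates, and p-values weigh group differences against the spread between these libraries.

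The members, lists and tests were chosen with earlier results of these data known. The genes named were the members, for each the 2 genes of at least 5 CPM most correlated with it, and listed pathway genes called with a mean of at least 5 CPM. A gene this rule named and a promoter sequence are not reported here. Other called list genes, the genes high in SPF Milli-Q replicate 2 and the edge genes were named after their values were seen, as was the count of genes at 3 times all other libraries. Alternatives were DESeq2 1.42.0, other size factors, other filters, the replicate number as a block and leaving out each library. The test was checked on simulated data. Figures used Python 3.11.15 and matplotlib 3.10.9.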

Additional observations from a re-analysis of the deposited data

Results flagged for a closer look

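Of 27 sets of 4 libraries (9 members in the groups of 4), 2 held a library far from the other 3, and chance gives about 1 in 20 such sets. Ret stood at 5.03 CPM in germ-free zinc replicate 2 and at 2.32 to 2.44 CPM in the other germ-free zinc libraries. Car2 stood at 0.186 CPM in antibiotics zinc replicate 1 and at 0.741 to 0.849 CPM in the others of its group, at 3 to 16 counts per library.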

How the results depend on the processing

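The calls of Slc28a2 in both comparisons with SPF mice on zinc water, and of Cfi after antibiotics, held in all 6 alternatives and all 21 fits without 1 library. Library totals in place of TMM factors called 606 genes after antibiotics (446 higher, 160 lower), 6310 in germ-free against SPF mice (32 higher, 6278 lower) and 734 for zinc in germ-free mice (689 higher, 45 lower), against 1172, 764 and 1485, and put the median over all genes (log2 fold change) at 0.127, −0.608 and 0.122, against −0.002, 0.002 and −0.019; Ret after antibiotics then had an edgeR adjusted p of 0.111, Nrp2 was called in germ-free mice (0.0345) and Id3 reversed there to −0.30 (0.245). DESeq2 called 1212 genes in germ-free against SPF mice. Without a filter on low counts 7 members were called after antibiotics. In germ-free against SPF mice 4 were called, Clca4a among them (adjusted p = 0.00717 in edgeR). For zinc in germ-free mice 2 (Hsd3b3 and Clca4a) were called. The cause was not tested. Hsd3b3 failed the filter of 10 counts in 10 libraries.

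Leaving out 1 library gave 272 (without SPF zinc replicate 2) to 1588 (without germ-free zinc replicate 4) genes and 2 to 5 members after antibiotics, 51 to 1573 genes and 1 to 3 members in germ-free against SPF mice (same libraries), and 5 (without germ-free Milli-Q replicate 2) to 3435 (without germ-free zinc replicate 4) genes and 0 members for zinc in germ-free mice. Signs turned for Hsd3b3 after antibiotics (−0.068 to 0.63), Car2 in germ-free against SPF mice (−1.06 to 0.13), and Cfi (−0.018 to 0.38) and Car2 (−0.50 to 0.83) for zinc in germ-free mice. Clca4a after antibiotics was called without germ-free zinc replicate 1 or 4 or SPF Milli-Q replicate 1 or 2 (adjusted p 0.0344 to 0.0418).

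Deviations of same-numbered libraries correlated weakly (r −0.17 to 0.23), which gave no clear sign of pairs. Some germ-free Milli-Q libraries carry other numbers in the deposited count columns, and pairs by those numbers were not examined. With the replicate number as a block, 934, 697 and 1416 genes and 4, 3 and 0 members were called; Ret after antibiotics had an adjusted p of 0.0575, Clca4a 0.0253, and Car2 for zinc in germ-free mice reversed to −0.042. Counts of at most 18 (Hsd3b3) and 37 (Car2) per library outside SPF Milli-Q replicate 2 limit what can be said of these genes.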
